A study of Homo sapiens with 6 samples.

Results

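In T24 and UM-UC-3, established human bladder carcinoma cell lines, 2 different siRNAs were used, and the 2 siRNA-2 libraries were compared here with the 2 siRNA-1 libraries of the same lines. These 4 libraries were all those that received an siRNA-1 or siRNA-2 label, of 6 libraries in all, and the other 2, a negative control of each line, served as the reference level. Cells were exposed for 48 h to 0.04 OD of siRNA-1, to 0.04 OD of siRNA-2 or to the negative control. The labels leave unsaid if an siRNA was part of the negative control. T24 grew in RPMI-1640 and UM-UC-3 in DMEM, and every comparison was made within a line. Total RNA was read as 100 bp paired ends on an Illumina instrument, with 1 library per line and treatment. Nothing in the labels says that libraries came from separate cultures, and each p-value therefore speaks of the variation among these 6 libraries alone. The labels name no target, while the series title is about HSF1, PRMT5 and WDR5.

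An siRNA is a short double-stranded RNA whose guide strand is loaded into an Argonaute protein and directs cleavage of a transcript that it matches along its length. Through the seed, a short stretch near its 5′ end, the same guide can also pair with the 3′ untranslated region (3′ UTR) of many other transcripts, in the way a microRNA does, and lower them. Experiments therefore often use siRNAs of different sequence against the same transcript, since effects through the target should be shared between them and effects through the seed should not. HSF1 is the main transcription factor of the heat shock response. PRMT5 is an arginine methyltransferase, and WDR5 is a subunit of histone H3 lysine methyltransferase complexes.

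Library depth was even, at 23709089 to 28504833 gene-assigned reads, so that 1 read was worth 0.0351 to 0.0422 CPM, counts scaled to the gene-assigned reads of the library. Genes encoded in mitochondrial DNA held 2.75% and 2.71% of the reads with siRNA-1 and siRNA-2 in T24, and 5.74% and 4.70% in UM-UC-3. Of 8 carcinoma cell markers 5 were listed in both lines, with a summed level of 312 to 1805 CPM per library. That sum was 1299 CPM with siRNA-1 and 1246 with siRNA-2 in T24, and 324 and 312 in UM-UC-3. The near-equal T24 sums hid opposite moves, with EGFR at 243 CPM with siRNA-1 and 464 with siRNA-2. KRT8 was at 719 and 492 CPM in T24, and KRT18 at 335 and 285. KRT7 and CDH3 reached at most 7.63 and 0.456 CPM in any library. EPCAM, CDH1 and KRT19 were not among the genes listed in both lines. Of 17 blood, endothelial and fibroblast markers 7 were listed, with a sum of 2.36 to 7.76 CPM.

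HSF1 was low with both siRNAs. In T24 the control had 106 CPM, the siRNA-1 library 20.3 and the siRNA-2 library 22.7. In UM-UC-3 the levels were 138, 50.3 and 36.5 CPM in the same order. Both siRNA libraries of each line lay below that line's control, and the siRNAs differed in opposite directions in the 2 lines. The mean difference between siRNA-2 and siRNA-1 was -0.15 (SE 0.30) on the log2(CPM + 1) scale, with a limma adjusted p of 0.896. PRMT5 stood at 73.1 and 47.4 CPM with siRNA-1 and siRNA-2 in T24, while UM-UC-3 had 57.0 and 56.2 CPM, with a limma adjusted p of 0.730. Its controls were at 40.6 CPM in T24 and 56.1 in UM-UC-3. WDR5 stood at 144 and 164 CPM in T24, while UM-UC-3 had 152 and 137 CPM, with controls at 111 and 146 and a limma adjusted p of 0.988.

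Many other genes were at least 2-fold apart between the siRNAs within a line, and some of them in the same direction in both lines. Of 13265 genes tested, 75 (0.565%) were at least 2-fold higher with siRNA-2 than with siRNA-1 in each line, and 84 (0.633%) were at least 2-fold lower in each line. In T24 alone 754 genes (5.68%) were 2-fold higher and 819 (6.17%) 2-fold lower, against 215 (1.62%) and 190 (1.43%) in UM-UC-3. The 75 genes were 9.95% of those higher in T24 and 34.9% of those higher in UM-UC-3. The 84 genes were 10.3% of those lower in T24 and 44.2% of those lower in UM-UC-3. At the 2-fold limit, ATP7A (1.00 and 1.02 on the log2 scale in T24 and UM-UC-3) was just inside and DNAH1 (1.03 and 0.99) just outside. Without a limit of size, 3778 genes (28.5%) were higher in both lines, 4520 (34.1%) were lower in both and 4967 (37.4%) differed in sign. The median difference over all genes was -0.10 in T24 and 0.02 in UM-UC-3, and Pearson's r between the lines was 0.417 across genes, which are not independent replicates. TMM scaling, which centres the libraries on most genes, moved the T24 median to 0.00.

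**Figure D1:**
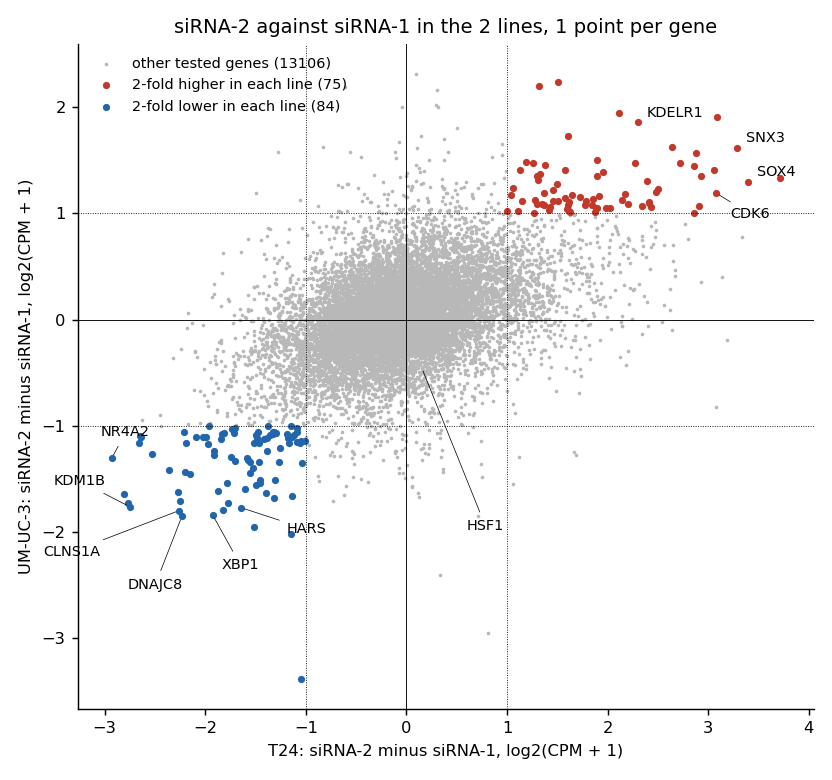
Each point is 1 of 13265 tested genes, placed by its difference between siRNA-2 and siRNA-1 in T24 (x axis) and UM-UC-3 (y axis), both on the log2(CPM + 1) scale. Red points are the 75 genes at least 2-fold higher and blue points the 84 genes at least 2-fold lower in each line, dotted lines mark 2-fold, and HSF1 lies near the centre.

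Across all 6 libraries, with treatment and cell line as terms, limma-trend called 37 genes at an adjusted p under 0.05. Of these 19 (0.143%) rose and 18 (0.136%) fell with siRNA-2 relative to siRNA-1, and all 37 were among the genes 2-fold apart in each line. In bulk libraries, fewer cells with a transcript and less of it per cell cannot be told apart. These calls depend on the setting: 0 genes passed with edgeR, with TMM-scaled CPM, without the filter on low values or without the T24 siRNA-2 library, and 258 genes passed with DESeq2.

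The genes that rose with siRNA-2 had varied functions. SNX3, a sorting nexin of the early endosome, was at 29.1 CPM with siRNA-1 and 293 with siRNA-2 in T24, while UM-UC-3 had 80.1 and 248 CPM. The controls were at 249 and 256 CPM, so siRNA-2 was near the control and siRNA-1 below it in both lines. SNX3 rose 10.1-fold (95% counting interval 9.36 to 10.8) in T24 and 3.09-fold (2.95 to 3.25) in UM-UC-3, with a limma adjusted p of 0.0299. KDELR1 encodes a receptor that returns escaped resident proteins to the endoplasmic reticulum. Its levels with siRNA-1 and siRNA-2 were 38.5 and 194 CPM in T24, against 168 in the control. In UM-UC-3 they were 64.2 and 236 CPM, against 174 in the control, and the mean rise was 2.08 (SE 0.27) on the log2 scale with a limma adjusted p of 0.0299. LAPTM4A, a lysosomal membrane protein, was at 15.9 and 72.0 CPM in T24, while UM-UC-3 had 39.1 and 153 CPM (controls 191 and 148), with a limma adjusted p of 0.0469. SH3BP4, which acts in endocytosis, was at 15.3 and 106 CPM in T24, while UM-UC-3 had 26.1 and 74.5 CPM (controls 114 and 56.6), with a limma adjusted p of 0.0449. For all 4 genes the siRNA-1 library was the lowest of its line.

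MN1, a transcriptional coregulator first found at a meningioma translocation, was also highest with siRNA-2 in both lines, at 5.07 and 43.7 CPM in T24, while UM-UC-3 had 1.58 and 6.67 CPM (limma adjusted p 0.0368). SOX4, a transcription factor of progenitor cells, was at 3.51 and 46.4 CPM in T24, while UM-UC-3 had 12.9 and 33.1 CPM (limma adjusted p 0.0469). The cell cycle kinase CDK6 was at 60.7 and 522 CPM in T24, while UM-UC-3 had 86.4 and 199 CPM, with controls at 335 and 153 (limma adjusted p 0.0469). All 3 genes rose with siRNA-2 in both lines, more in T24 than in UM-UC-3, a difference between lines that was not tested. PPP3CB, a catalytic subunit of the phosphatase calcineurin, rose from 9.26 to 73.3 CPM in T24 and from 35.2 to 97.4 CPM in UM-UC-3 (limma adjusted p 0.0445). CCDC106, NREP and LRRC6 rose too, by 11.2-fold, 6.38-fold and 5.68-fold in T24 and by 2.93-fold, 2.87-fold and 6.61-fold in UM-UC-3.

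Among the 14 genes with the largest differences in this direction, ARHGAP18, NR2F1, SEMA3A and ZFYVE9 did not pass the test. ARHGAP18 was at 24.5 and 158 CPM with siRNA-1 and siRNA-2 in T24, while UM-UC-3 had 3.52 and 13.0 CPM (limma adjusted p 0.0958). SEMA3A, a secreted guidance cue, was at 6.12 and 25.5 CPM in T24, while UM-UC-3 had 55.8 and 160 CPM (limma adjusted p 0.0736). ZFYVE9, which anchors SMAD proteins at endosomes, was at 11.7 and 36.8 CPM in T24, while UM-UC-3 had 21.8 and 59.8 CPM (limma adjusted p 0.0572). NR2F1, an orphan nuclear receptor, was at 0.688 and 4.15 CPM in T24, while UM-UC-3 had 11.2 and 39.5 CPM (limma adjusted p 0.160).

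**Figure D2:**
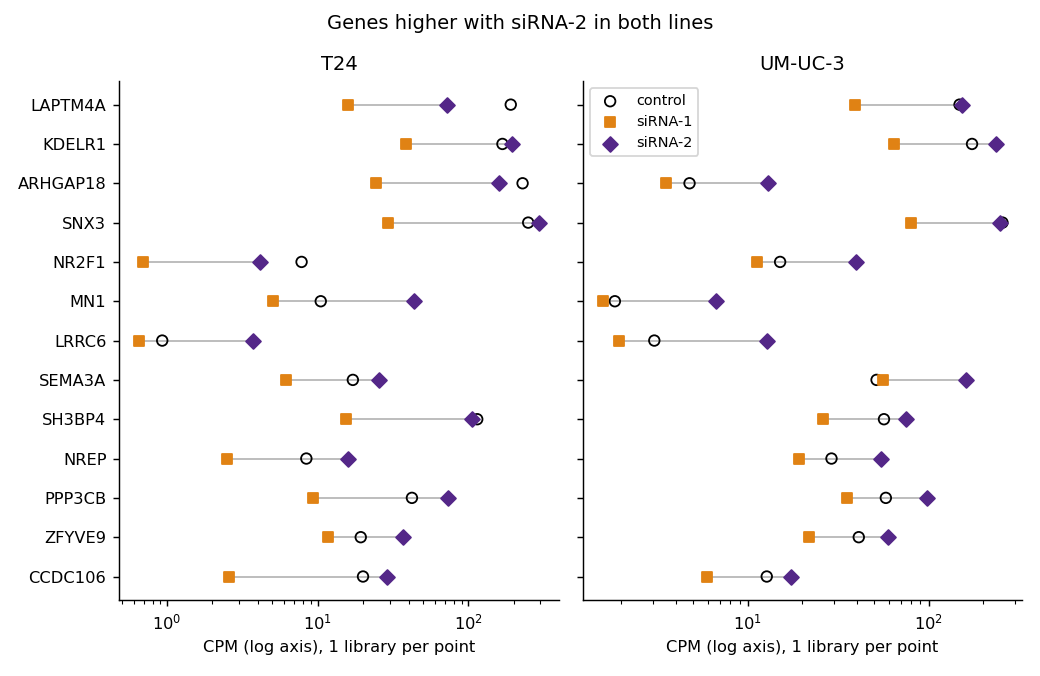
CPM on a log axis of 13 of the genes with the largest same-direction differences higher with siRNA-2, 1 library per point, in T24 (left) and UM-UC-3 (right). The siRNA-1 square is below the control circle for all 13 genes in T24 and for 12 of 13 in UM-UC-3, and the siRNA-2 diamond is below it for 4 genes in T24 and 1 in UM-UC-3.

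In the other direction the control was more often near siRNA-1. CLNS1A encodes pICln, a partner of PRMT5 that brings Sm proteins to it for methylation during spliceosome assembly. Its levels with siRNA-1 and siRNA-2 were 125 and 25.3 CPM in T24, with the control at 62.2. In UM-UC-3 they were 227 and 64.5 CPM, with the control at 201. The siRNA-2 library was the lowest in both lines, and CLNS1A fell 4.94-fold (4.55 to 5.37) in T24 and 3.52-fold (3.34 to 3.71) in UM-UC-3, with a limma adjusted p of 0.0299. DNAJC8, a J-domain protein of the spliceosome, was at 231 and 48.4 CPM in T24, while UM-UC-3 had 183 and 49.9 CPM, with controls at 162 and 181. It fell by 2.04 (SE 0.26) on the log2 scale, with a limma adjusted p of 0.0299. KDM1B, a histone demethylase, was at 139 and 19.7 CPM in T24, while UM-UC-3 had 101 and 28.98 CPM, with controls at 63.4 and 93.7 (limma adjusted p 0.0299). It was the only one of 19 histone demethylases tested that passed, and 18 of all tested genes (0.136%) passed as lower. Of the 19, 8 were higher and 3 lower in both lines, against 28.5% and 34.1% of all genes.

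XBP1, the transcription factor whose spliced form drives the unfolded protein response, was at 176 and 45.5 CPM with siRNA-1 and siRNA-2 in T24. In UM-UC-3 it was at 54.4 and 14.5 CPM, and the controls were at 197 and 37.3. XBP1 fell 3.86-fold (3.63 to 4.12) and 3.75-fold (3.36 to 4.197), with a limma adjusted p of 0.0332, and siRNA-2 was lowest in both lines. HARS, the cytosolic histidyl-tRNA synthetase, was at 161 and 50.9 CPM in T24, while UM-UC-3 had 173 and 50.1 CPM, with controls at 139 and 149 (limma adjusted p 0.0299). SUMO3, a ubiquitin-like modifier, was at 170 and 34.4 CPM in T24, while UM-UC-3 had 133 and 42.5 CPM, with controls at 168 and 133 (limma adjusted p 0.0299). For HARS and SUMO3 the control and siRNA-1 were close in both lines and siRNA-2 was apart from them.

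LPCAT1, which reacylates lysophosphatidylcholine, fell from 193 to 53.8 CPM in T24 and from 230 to 65.7 CPM in UM-UC-3, with controls between at 129 and 90.3 (limma adjusted p 0.0332). ARL1, a small GTPase of the Golgi, fell from 189 to 54.3 CPM and from 138 to 46.8 CPM, with controls at 69.1 and 105 (limma adjusted p 0.0481). ID3, an inhibitor of helix-loop-helix transcription factors, fell from 143 to 23.97 CPM and from 454 to 188 CPM, with controls at 29.2 and 167 (limma adjusted p 0.0445). Unlike HARS and SUMO3, ID3 was near the control with siRNA-2 and above it with siRNA-1 in both lines. PLPBP, GRINA, GPR137B, CUTA and the nuclear receptor NR4A3 completed the named genes that fell, with limma adjusted p values of 0.0299 to 0.0455. Of the 14 genes with the largest differences in this direction 13 passed, and OASL, described with the RNA sensors, did not. NR4A3 was at 8.76 and 1.05 CPM in T24, while UM-UC-3 had 4.11 and 0.561 CPM.

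**Figure D3:**
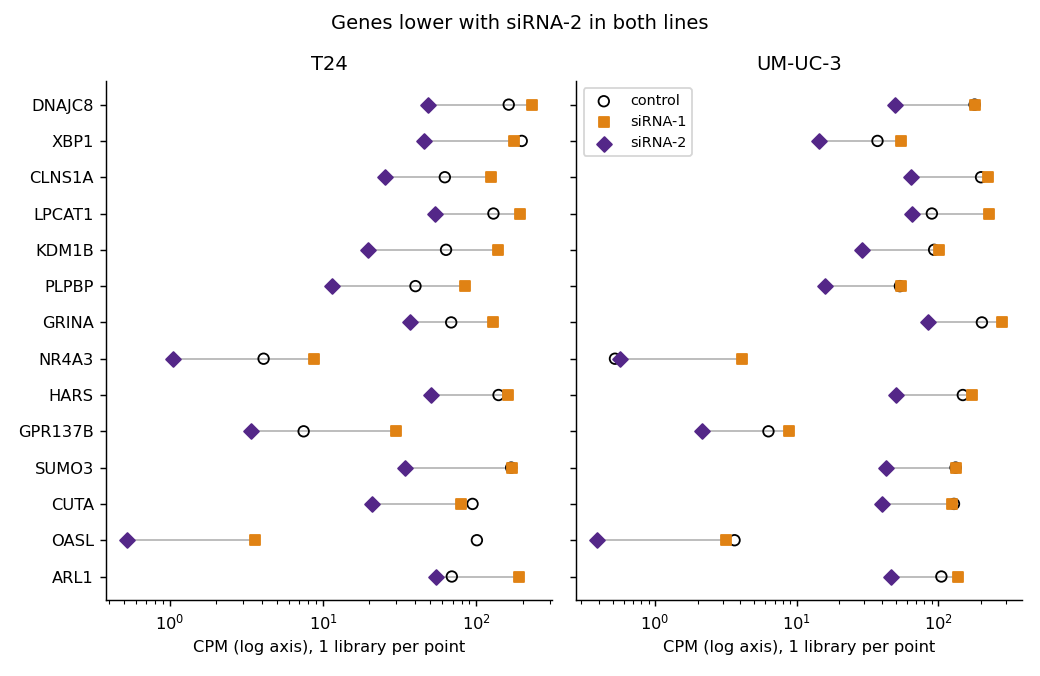
CPM on a log axis of the 14 genes with the largest same-direction differences lower with siRNA-2, 1 library per point, in T24 (left) and UM-UC-3 (right). The siRNA-2 diamond is below the control circle for all 14 genes in T24 and for 13 of 14 in UM-UC-3, and the siRNA-1 square is below it for 3 and 2 genes.

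The position of the control was tallied for all genes 2-fold apart in each line. It cannot be read as independent between the siRNAs, since both were set against the same control library of a line. Of the 75 higher genes, siRNA-1 was farther from the control in both lines for 36, siRNA-2 was farther in both for 14, and 25 differed between lines. Their median difference from the control for siRNA-1 was -1.50, and 0.51 for siRNA-2, in T24, and -0.65 and 0.57 in UM-UC-3. Of the 84 lower genes, siRNA-2 was farther in both lines for 41, siRNA-1 for 14, and 29 differed between lines. Their medians were 0.64 with siRNA-1 and -1.09 with siRNA-2 in T24, and 0.38 and -0.93 in UM-UC-3. The genes were chosen for the difference between the siRNAs, which by itself places the siRNAs on different sides of many controls, so these values are a description.

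The 3′ UTRs were read for short words, since seeds can pair there, and whether any difference came from a seed was not tested. The search covered 11302 tested genes with an annotated 3′ UTR of at least 50 bases. All words of 7 bases held by at least 100 of these genes were ranked in T24. The rank took the mean difference between siRNA-2 and siRNA-1 of the genes that held a word, minus that of the other genes. This was divided by its standard error, which shrinks as holders increase, so the rank weighs size and number of holders together. The first word at each end was then read in UM-UC-3. Words were searched on the transcript strand only. Of 15663 words, GACAAGA ranked first at the end higher with siRNA-2 and GTACTTC first at the end lower with siRNA-2, and each also ranked first in UM-UC-3. The following sites, with the word in capitals, show these words in genes that rose (first 4) and fell (last 4) with siRNA-2.
SNX3: tttggcagttGACAAGAagttaatttg
SOX4: aacaaaaaaaGACAAGAgagatgaaaa
KDELR1: ttgccttttaGACAAGAaaaaaaaatc
SH3BP4: attagtcattGACAAGAacaatgccat
DNAJC8: tcagtgttttGTACTTCactgaattgt
XBP1: aagcctgtctGTACTTCattcaaaaag
CLNS1A: agtcctcaaaGTACTTCaaatggtaat
HARS: aactgcatatGTACTTCaattgctttg

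These are transcript-strand sequences, 5′ to 3′, from GENCODE 29 on GRCh38, all within annotated 3′ UTRs. The SNX3 site lies at chr6:108211980-108212006 on the minus strand, the SOX4 site at chr6:21597647-21597673 on the plus strand, the KDELR1 site at chr19:48383066-48383092 on the minus strand and the SH3BP4 site at chr2:235054613-235054639 on the plus strand. The DNAJC8 site lies at chr1:28200942-28200968, the XBP1 site at chr22:28795087-28795113, the CLNS1A site at chr11:77616201-77616227 and the HARS site at chr5:140674173-140674199, all on the minus strand. The sequences of the siRNAs are not given in the sources used here, so whether either word pairs with either siRNA was not tested.

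GACAAGA was held by 1093 of the 11302 genes (9.67%) and by 35 of the 71 genes with a 3′ UTR (49.3%) that were 2-fold higher with siRNA-2 in each line. Among the 76 genes 2-fold lower it was held by 6 (7.89%). GTACTTC was held by 777 of all genes (6.88%), by 35 of the 76 lower genes (46.1%) and by 4 of the 71 higher genes (5.63%). These shares in the 2-fold genes are a description, because the words were ranked on the same differences in T24. Of the 14 named higher genes 7 held GACAAGA and 1 held GTACTTC, and of the 14 named lower genes 9 held GTACTTC and 0 held GACAAGA. Holders also had longer 3′ UTRs, with a median of 3100 bases for GACAAGA and 3299 for GTACTTC against 1191 over all genes, and the 2-fold higher and lower genes had medians of 1898 and 1383. The part of 3′ UTR length in these shares was not tested.

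The words were not chosen in UM-UC-3. There the median difference between siRNA-2 and siRNA-1 was 0.17 for genes with GACAAGA and 0.00 for genes without it. For genes with GTACTTC it was -0.14 and for genes without it 0.03. In T24 the medians were 0.18 with and -0.11 without GACAAGA, and -0.30 with and -0.08 without GTACTTC. Both lines thus placed the holders of each word on the same side of the other genes. The lines are not independent readings here, since their differences were correlated across genes (Pearson's r 0.417), and this is a description. The 130 genes with at least 2 copies of GACAAGA had medians of 0.26 in T24 and 0.20 in UM-UC-3. For GTACTTC, the 74 genes with at least 2 copies had medians of -0.29 and -0.23, against -0.30 and -0.14 for those with 1 copy. Against the control, genes with GACAAGA were at -0.19 with siRNA-1 and 0.02 with siRNA-2 in T24, and at -0.04 and 0.11 in UM-UC-3. Genes with GTACTTC were at 0.09 with siRNA-1 and -0.25 with siRNA-2 in T24, and at 0.05 and -0.09 in UM-UC-3. Over all genes with a 3′ UTR these medians were 0.11 and 0.04 in T24, and 0.03 and 0.05 in UM-UC-3. Where the word stood only before the 3′ UTR, the medians were 0.17 and 0.10 for GACAAGA (2217 genes) and -0.16 and -0.02 for GTACTTC (1032 genes). Of the 71 higher and 76 lower genes with a 3′ UTR, 35 and 38 held neither word, against 9582 of all 11302 genes.

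**Figure D4:**
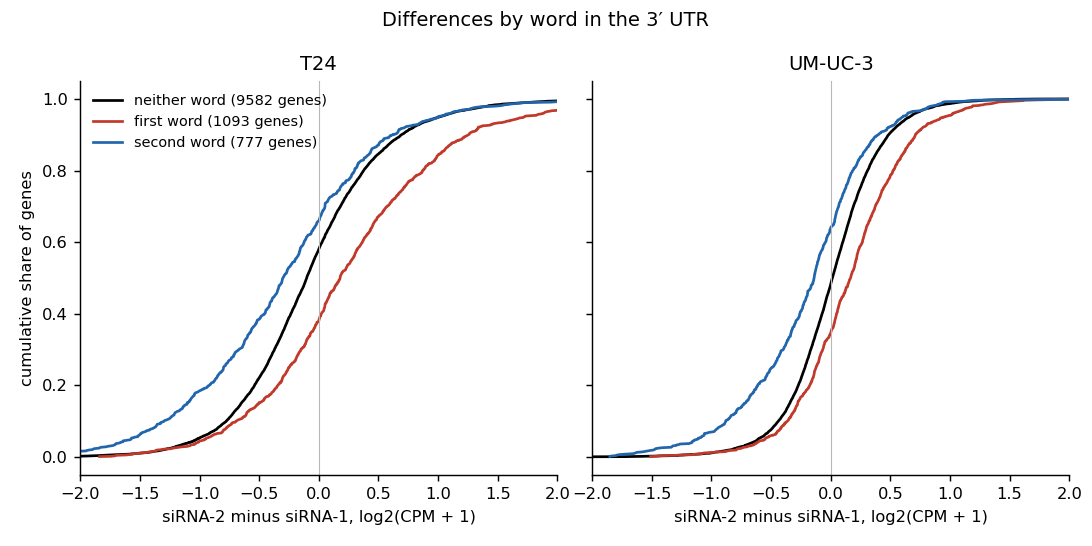
Cumulative share of genes by difference between siRNA-2 and siRNA-1, log2(CPM + 1), in T24 (left) and UM-UC-3 (right), for 9582 genes with neither word, 1093 with GACAAGA (first word) and 777 with GTACTTC (second word) in the 3′ UTR. The first word's curve lies to the right and the second word's to the left of the black curve over most of the range in both lines, and 150 genes with both words enter both curves.

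Functions were described from 55 gene lists by their counts and medians, beside the all-gene medians of -0.10 in T24 and 0.02 in UM-UC-3 and the shares of all genes higher (28.5%) and lower (34.1%) in both lines. Of 53 lists with at least 5 tested members, 21 had a median under 0 in both lines, 13 above 0 in both, and 19 differed in sign. Only 7 of them had a member that passed limma's test, which 0.143% of all genes passed as higher and 0.136% as lower. The arginine methyltransferases and partners of PRMT5 were among the lowest. Of 12 tested members 9 were lower with siRNA-2 in both lines and 0 were higher in both, with medians of -0.46 in T24 and -0.31 in UM-UC-3. CLNS1A was the member that passed. WDR77, the PRMT5 cofactor also called MEP50, was at 55.2 and 38.4 CPM with siRNA-1 and siRNA-2 in T24, while UM-UC-3 had 71.3 and 49.8 CPM (limma adjusted p 0.570). PRMT6 was at 65.5 and 43.0 CPM and at 41.3 and 26.1 CPM (limma adjusted p 0.426). Against the control, the median of the list was 0.70 for siRNA-1 and 0.24 for siRNA-2 in T24, and 0.15 and -0.08 in UM-UC-3.

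Of 17 genes of WDR5 and MLL/SET1 complexes, 7 were lower and 4 higher in both lines, with medians of -0.24 and -0.09, and these counts are close to the shares of all genes. RBBP5, a core partner of WDR5, was 2-fold lower in each line, at 92.1 and 34.5 CPM with siRNA-1 and siRNA-2 in T24, while UM-UC-3 had 32.5 and 14.4 CPM (limma adjusted p 0.0867). Its controls were at 52.7 and 24.7 CPM, between the siRNAs. MEN1, the menin subunit, was at 78.2 and 25.9 CPM in T24, while UM-UC-3 had 68.1 and 45.8 CPM (limma adjusted p 0.182). Without holders of either 3′ UTR word the list's median over both lines moved from -0.11 to 0.01.

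Heat shock factor targets and cytosolic chaperones, which keep proteins folded, had medians near those of all genes in T24. Of 27 tested, 11 were lower and 6 higher in both lines, with medians of -0.03 and -0.17, again close to the shares of all genes, and none was 2-fold apart in each line or passed. DNAJB1, a co-chaperone induced by heat shock, was at 113 and 72.7 CPM in T24, while UM-UC-3 had 79.2 and 61.0 CPM (limma adjusted p 0.467). All 8 subunits of the CCT chaperonin were tested, of which 6 were lower in both lines and 0 were higher in both, with medians of -0.13 and -0.32.

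Immediate early genes, which are transcribed within minutes of a growth or stress signal, lay mostly lower with siRNA-2. Of 30 tested, 18 were lower and 1 higher in both lines, with medians of -0.31 and -0.42. NR4A2, an orphan nuclear receptor, was at 57.9 and 6.73 CPM with siRNA-1 and siRNA-2 in T24, while UM-UC-3 had 2.16 and 0.281 CPM, with controls at 32.8 and 1.04 (limma adjusted p 0.0552). DUSP5, a phosphatase that inactivates ERK kinases, was at 179 and 80.5 CPM in T24, while UM-UC-3 had 118 and 36.5 CPM (limma adjusted p 0.0553). In T24, FOS had a control level of 212 CPM, against 11.3 CPM for siRNA-1 and 5.12 CPM for siRNA-2 (limma adjusted p between the siRNAs 0.749).

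Cholesterol synthesis genes, which the transcription factor SREBP2 controls together, also lay mostly lower. Of 26 tested, 15 were lower and 5 higher in both lines, with medians of -0.25 and -0.36. INSIG1, which holds SREBP proteins in the endoplasmic reticulum, was at 613 and 212 CPM in T24 (limma adjusted p 0.0925). MVD, an enzyme of the mevalonate pathway, was at 471 and 232 CPM in T24, while UM-UC-3 had 39.8 and 19.5 CPM (limma adjusted p 0.137). None of these genes passed.

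Nuclear long noncoding RNAs and small RNA host genes had the lowest median of the lists in T24 after the replication-dependent histones, at -0.74, and -0.22 in UM-UC-3. Of 18 tested, 14 were lower and 1 higher in both lines, and none passed. NEAT1, the scaffold of paraspeckles, was at 296 and 89.7 CPM with siRNA-1 and siRNA-2 in T24, while UM-UC-3 had 601 and 455 CPM (limma adjusted p 0.191). SNHG1 was at 126 and 50.3 CPM in T24, while UM-UC-3 had 160 and 120 CPM (limma adjusted p 0.274).

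Sensors of double-stranded RNA and interferon-stimulated genes were read because siRNAs are themselves double-stranded. Of 13 sensors, 7 were lower with siRNA-2 and 2 higher in both lines, with medians of -0.48 and -0.07. OASL was at 3.62 and 0.523 CPM with siRNA-1 and siRNA-2 in T24, while UM-UC-3 had 3.19 and 0.386 CPM, with controls at 101 and 3.64 (limma adjusted p 0.437). OAS1 was at 7.27 and 1.76 CPM in T24, while UM-UC-3 had 6.05 and 1.86 CPM, with controls at 8.01 and 3.40 (limma adjusted p 0.0967). Among 37 interferon response genes 19 were lower and 5 higher in both lines, and RSAD2 was at 3.98 and 0.449 CPM in T24, with its control at 42.5 (limma adjusted p 0.564). In T24 the controls of OASL and RSAD2 were far above both siRNAs, while siRNA-1 left OAS1 near its control. UM-UC-3 differed, since siRNA-1 was near the control for OASL and above it for OAS1. RSAD2 was low in UM-UC-3 and its control was lowest, with 0.040 CPM against 1.03 for siRNA-1 and 0.105 for siRNA-2.

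In the unfolded protein response list 12 of 25 genes were lower and 7 higher in both lines, with medians of -0.41 and 0.00. XBP1 fell, and HYOU1, a chaperone of the endoplasmic reticulum, was at 156 and 396 CPM in T24, while UM-UC-3 had 175 and 297 CPM (limma adjusted p 0.319). Of 20 cytosolic aminoacyl-tRNA synthetases 11 were lower and 4 higher in both lines, and HARS was the only one that passed. Of 25 TGF-beta pathway genes 10 were lower and 6 higher, near the shares of all genes, and ID3 was the only one that passed.

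Matrix genes lay mostly higher with siRNA-2. Of 26 collagens, laminins and matrix glycoproteins 14 were higher and 2 lower in both lines, with medians of 0.37 and 0.44, and none was 2-fold apart in each line or passed. NID1, which links laminin and collagen in basement membrane, was at 59.2 and 113 CPM in T24, while UM-UC-3 had 1.03 and 1.93 CPM (limma adjusted p 0.394). COL6A2 was at 23.7 and 36.4 CPM in T24, while UM-UC-3 had 55.1 and 77.0 CPM (limma adjusted p 0.475).

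Of 15 VEGF and lymphatic growth factor genes 8 were higher with siRNA-2 and 2 lower in both lines, with medians of 0.13 and 0.27. VEGFA was at 57.5 and 122 CPM with siRNA-1 and siRNA-2 in T24, below the control at 232. In UM-UC-3 it was at 137 and 213 CPM, above the control at 72.2, and the limma adjusted p was 0.554. Of 34 glycolysis and hypoxia genes, a list that also holds VEGFA, 19 were higher and 5 lower in both lines, with medians of 0.25 and 0.12. Glucose transporter SLC2A1 was at 57.4 and 108 CPM in T24, while UM-UC-3 had 259 and 393 CPM (limma adjusted p 0.384).

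Of 25 Wnt pathway genes 12 were higher and 4 lower in both lines, with medians of 0.41 and 0.11. LGR4, a receptor for R-spondins, was 2-fold higher in each line, at 54.3 and 190 CPM in T24, while UM-UC-3 had 6.08 and 14.3 CPM (limma adjusted p 0.0736). PORCN, which acylates Wnt proteins, was 2-fold lower, at 23.3 and 7.29 CPM in T24, while UM-UC-3 had 10.3 and 3.44 CPM (limma adjusted p 0.0745). RNA interference genes were read because siRNAs use part of that machinery. Of 14 tested 6 were higher and 3 lower in both lines. DROSHA, which cuts primary microRNA transcripts, was at 22.8 and 100.2 CPM in T24, while UM-UC-3 had 66.5 and 120 CPM (limma adjusted p 0.136).

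**Figure D5:**
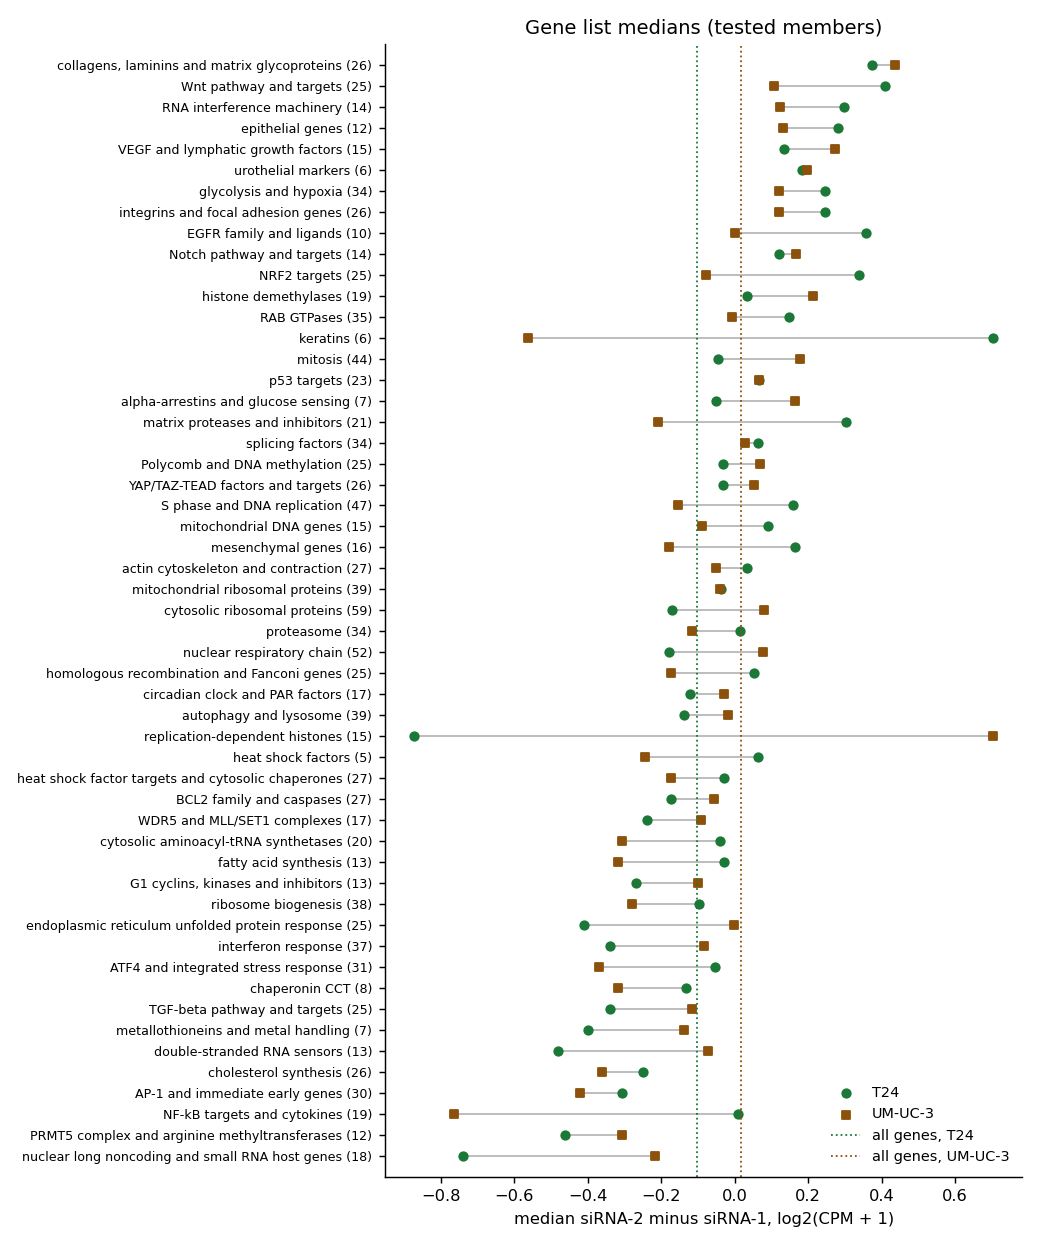
Median difference between siRNA-2 and siRNA-1, log2(CPM + 1), of the tested members of 53 gene lists (number of members in brackets) in T24 (circles) and UM-UC-3 (squares), sorted by the mean of both. Dotted lines are the medians of all 13265 genes, -0.10 and 0.02; long noncoding RNAs and PRMT5 partners are at the bottom and matrix genes at the top.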

How the data were processed

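RNA-seq libraries of T24 and UM-UC-3 were compared in 3 groups, siRNA-1, siRNA-2 and control, with 1 library per line each. Per the submitters' processing notes, bcl2fastq 2.19.1, HISAT2 2.1.0 and HTSeq 0.6.1 were used with hg19 and GRCh37, roles not given. Values deposited by the authors are CPM per gene, scaled to gene-assigned reads, judged from the values. Whole reads were recovered in 100% of values within 0.01 read, with 0.5 read standing for 0. A gene missing from 1 siRNA's file was set to 0 (435 to 711 values per library).

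Lines were joined by Ensembl ID (19945 genes in both; 4244 had different names, 20 date-like names were restored). limma-trend 3.58.1 in R 4.3.3 was run on log2(CPM + 1) for 13265 genes with a mean of at least 1 CPM, with treatment and cell line as terms. Pairing comes from the shared cell line. Adjusted p-values (Benjamini-Hochberg, threshold 0.05) cover all tested genes. The step was run on simulated counts with equal changes in both lines and a fixed spread. That setting is simpler than these data, so the run checks the code only. Fold intervals (exact binomial, 95%) cover counting error only. A fold on the log2(CPM + 1) scale understates changes of low genes. The 2-fold rule is a log2(CPM + 1) difference of at least 1 in each line. An exact permutation test paired by line could not go below p = 0.5, so none is given.

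Named genes were HSF1, PRMT5 and WDR5, the 14 with the largest smaller-of-both-lines difference in each direction among genes with at least 50 reads on average, up to 6 per direction past the threshold by size, and up to 4 per list. ATP7A, DNAH1, CDK6 and ID3 were named for their place at the limit or in the lists. The members, lists and tests were chosen with earlier results of these data known. 3′ UTRs came from GENCODE 29 (GRCh38), matched by ID, 1 transcript per gene. Alternatives used edgeR 4.0.16, DESeq2 1.42.0, limma-voom, other pseudocounts, filters and scalings, no block and left-out libraries. Genes with near-identical copies or opposite-strand overlaps are uncertain. 1 named gene is not reported here.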

Additional observations from a re-analysis of the deposited data

Results flagged for a closer look

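Some differences between the siRNAs had opposite directions in the 2 lines. With 1 pair of libraries per line, none of these differences between lines was tested. G0S2, KYNU, MYH16 and AMPD3, 4 genes in all, were at least 2-fold higher with siRNA-2 in T24 and at least 2-fold lower in UM-UC-3. AMPD3 was at 2.03 and 8.75 CPM with siRNA-1 and siRNA-2 in T24, while UM-UC-3 had 4.47 and 1.26 CPM. DUSP19, ALDH6A1 and HIST1H2BD, 3 genes, did the reverse. ALDH6A1, a mitochondrial dehydrogenase of valine breakdown, was at 7.92 and 2.69 CPM in T24, while UM-UC-3 had 5.10 and 17.3 CPM.

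Replication-dependent histones had a median difference of -0.87 in T24 and 0.70 in UM-UC-3 on the log2(CPM + 1) scale. Keratins had medians of 0.70 and -0.56. The NF-kB targets and cytokines had medians of 0.010 and -0.76. Matrix proteases and their inhibitors had medians of 0.30 and -0.21. All 6 keratins tested were lower with siRNA-2 in UM-UC-3. Histone genes have near-identical copies, so their counts are uncertain.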

How the results depend on the processing

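The count of genes past limma's adjusted threshold (19 higher, 18 lower) depended on the setting. It was 0 in both directions without the filter on low values, with TMM-scaled CPM, with edgeR (TMM or RLE) and with no replicate block for cell line. At an unadjusted p under 0.05 these fits held 1822, 1575, 1499, 1501 and 225 genes, against 1609 in limma-trend as run. It was 6 higher and 14 lower with limma-voom, 240 and 223 with the siRNA libraries only, 137 and 121 with DESeq2, and 8 and 7 among genes with neither 3′ UTR word. Leaving out 1 library in turn, it ranged from 0 to 320 higher and from 0 to 219 lower. It was 0 and 0 without the T24 siRNA-2 library, 4 and 17 without the T24 siRNA-1 library, 320 and 155 without the UM-UC-3 siRNA-1 library, 47 and 40 without the UM-UC-3 siRNA-2 library, 240 and 219 without the T24 control, and 230 and 217 without the UM-UC-3 control. The contrast then comes in part from 1 line, and the lone sample is assumed to vary like the others. The counts of genes 2-fold apart in each line (75 and 84) were 71 and 76 among genes with a 3′ UTR. They were 35 and 38 among those with neither word in the 3′ UTR, a set chosen after seeing the data. They stayed within 1.5 times under the other settings, 58 to 95 higher and 69 to 103 lower. The share with the same direction in both lines was 62.6%, 59.3% without the filter and 64.3% at 5 CPM or more. Leaving out 1 library in turn, the log2 difference ranged from -0.52 to 0.23 for HSF1 (reversed without the UM-UC-3 siRNA-1 library), from -0.67 to 0.034 for PRMT5 (reversed without the T24 siRNA-1 library) and from -0.22 to 0.26 for WDR5 (reversed without the T24 siRNA-2 library), and none of these passed the threshold. TMM scaling moved the all-gene median in T24 from -0.10 to 0.00 and the share of genes higher from 42.3% to 50.2%. It turned the median over both lines from -0.03 to 0.02 for histones and from -0.02 to 0.04 for keratins. The cause of each change was not tested. Of the 2-fold counts and list medians, no value without a library can be given, since both lines are needed. With 2 residual degrees of freedom and 1 library per line and treatment, small differences are not detectable.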

Other observations

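The medians of mitotic genes, which peak as cells divide, and of S phase genes were below the control with both siRNAs. These medians differed between the siRNAs by less than that gap, while single genes could differ more. Of 44 mitotic genes 18 were higher with siRNA-2 and 9 lower in both lines. Their median against the control for siRNA-1 was -1.27, and for siRNA-2 -1.28, in T24, and -0.47 and -0.32 in UM-UC-3. Centromere protein CENPF was at 23.2 CPM with siRNA-1 and 153 with siRNA-2 in T24, while UM-UC-3 had 180 and 249 CPM, with controls at 374 and 272. Of 47 S phase genes 16 were lower and 6 higher in both lines, with medians of -0.95 and -0.80 against the control in T24 and -0.52 and -0.73 in UM-UC-3.

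Ribosome biogenesis factors were lower with siRNA-2 in both lines for 20 of 38 genes and higher for 5. RRP12, a factor for export of ribosomal subunits, was at 221 and 101 CPM with siRNA-1 and siRNA-2 in T24. Among integrins and focal adhesion genes, 11 of 26 were higher and 6 lower in both lines. Integrin ITGB5 was at 28.3 and 157 CPM in T24, while UM-UC-3 had 95.7 and 177 CPM, with controls at 290 and 196. Vinculin, VCL, went the other way, at 809 and 282 CPM in T24, while UM-UC-3 had 1051 and 539 CPM.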
